A study of Mus musculus with 12 samples.

Results

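The 9 CC chemokine genes described here are Ccl2, Ccl7, Ccl12 and Ccl8 of the monocyte chemoattractant protein (MCP) cluster and Ccl3, Ccl4, Ccl5, Ccl6 and Ccl9 of the macrophage inflammatory protein (MIP) cluster. They were taken by symbol from the 19937 genes with a probe set naming 1 gene only, and each of the 9 had 1 such probe set. Newly made RNA was measured on 12 arrays of mouse macrophages, in 4 groups of 3. MPI-2 LPS and MPI-2 mock were cells of MPI-2, a single self-renewing line from C57BL/6 fetal liver that depends on GM-CSF and was grown in RPMI with 10% FCS. BMM LPS and BMM mock were bone marrow macrophages of C57BL/6 mice, grown with M-CSF in DMEM with 10% FCS. LPS, a part of the bacterial outer membrane that cells detect through Toll-like receptor 4 (TLR4), was given as R-LPS at the labelled dose of 0.1 mg/ml. All 4 groups received 4-thiouridine, a uridine analogue built into RNA during transcription, for 60 min at a labelled 250 mM. Whether either labelled unit lost a micro sign is not known, so both doses are uncertain. In the LPS groups labelling began 30 min after LPS and ended at 90 min, so their values cover transcription in that window. No group carried a mutation or transgene in the labels. The titles speak of biological replicates but name no animal or culture, so the p-values rest on a spread between samples that may be technical.

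CC chemokines are small secreted proteins that guide leukocytes along a gradient by binding receptors of the Ccr family. Macrophages exposed to LPS transcribe many of them within the first hours, through NF-kB and AP-1 and, for some genes, through the interferon beta that the same cells release. The MCP genes mainly call in monocytes and eosinophils, and the MIP genes monocytes, T cells and natural killer cells. Ccl6 and Ccl9 are rodent genes known for being made by resting myeloid cells.

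In the RefSeq annotation of GRCm38.p6 all 9 genes lie on chromosome 11. The MCP cluster runs Ccl2, Ccl7, Ccl11, Ccl12, Ccl8, Ccl1 and the MIP cluster Ccl5, Ccl9, Ccl6, Ccl3, Ccl4. The extents of Ccl3 and Ccl4 overlap there, as do those of Ccl5 and Gm32650 and of Ccl6 and E230016K23Rik, and signal from such neighbours cannot be told apart here. Levels are deposited log2 values, and each is compared only with the same gene on other arrays, since probe sets differ in brightness. A value of 3.36, the 95th percentile of the means of 1027 olfactory receptor genes, served as the background level. Of the 9 genes, 7 had a mean above it in MPI-2 LPS, 7 in MPI-2 mock, 9 in BMM LPS and 7 in BMM mock.

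A mean over the 12 arrays above background was held by 12030 of the 19937 genes. Of 8 macrophage markers, 8 were above it in every group, the lowest being Fcgr1 at 3.93 in MPI-2 LPS. The mean of that marker list per array ran from 8.02 to 8.04 in MPI-2 LPS, 7.82 to 7.94 in MPI-2 mock, 8.35 to 8.61 in BMM LPS and 9.14 to 9.26 in BMM mock. Of 49 markers of other cell types, 12, 12, 18 and 16 lay above background in MPI-2 LPS, MPI-2 mock, BMM LPS and BMM mock. The highest were S100a8 at 6.57 in MPI-2 LPS, Pdgfra at 6.13 in MPI-2 mock, and Col1a1 at 4.95 in BMM LPS and 4.99 in BMM mock. Clec9a, a dendritic cell marker, averaged 5.35 in MPI-2 LPS and 5.83 in MPI-2 mock and was under background in both BMM groups. The part of these markers in the results below was not tested. Arrays of 1 group correlated at 0.994 to 0.996 over all genes in MPI-2 and at 0.975 to 0.989 in BMM. Fewer cells of a kind and less RNA per cell cannot be told apart in such bulk samples. Cell type, growth factor, medium and any batch of arrays cannot be told apart between MPI-2 and BMM.

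**Figure D1:**
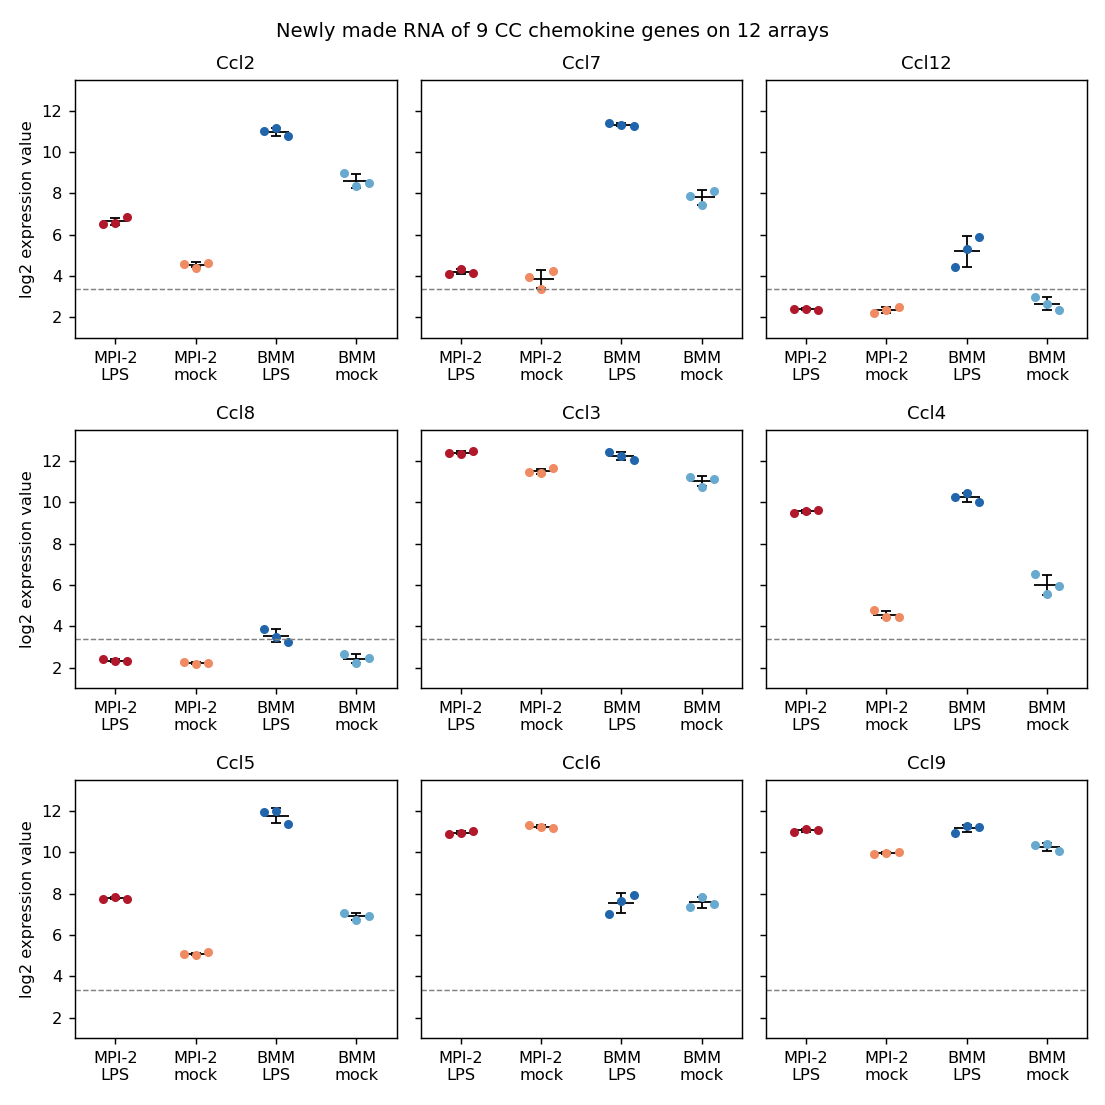
Each panel plots the log2 value of 1 gene on every array, with MPI-2 LPS, MPI-2 mock, BMM LPS and BMM mock from left to right. Points are arrays, horizontal bars and whiskers are the mean and SD of 3 arrays, and the dashed line is the background level of 3.36. Ccl7 averages 4.21 in MPI-2 LPS and 11.33 in BMM LPS, while Ccl3 and Ccl9 have overlapping LPS arrays in the 2 cell types.

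LPS raised the transcription of 5 of the 9 genes in MPI-2 and of 8 of the 9 in BMM, and lowered none past the threshold in either. In MPI-2 the 5 were Ccl4, Ccl5, Ccl2, Ccl9 and Ccl3, in order of size, and in BMM all but Ccl6 rose. Across all 19937 genes limma called 14.8% in MPI-2 (5.17% higher, 9.58% lower) and 25.7% in BMM (10.3% higher, 15.4% lower), at a Benjamini-Hochberg adjusted p under 0.05. The median change of the 9 genes was 0.89 on the log2 scale in MPI-2, against 0.02 over all genes, and 2.38 in BMM, against 0.04 over all genes. The LPS arrays of MPI-2 lay wholly above the mock arrays for 6 genes and wholly below for 1, against 16.6% and 20.5% of all genes. In BMM they lay wholly above for 8 genes and below for none, against 15.6% and 16.5% of all genes.

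Ccl2, the main monocyte attractant of the MCP cluster and a ligand of Ccr2, rose in both cell types and stood far lower in MPI-2 than in BMM with or without LPS. On the 3 MPI-2 LPS arrays it read 6.54, 6.58 and 6.84, against 4.60, 4.41 and 4.63 on the MPI-2 mock arrays. On the BMM LPS arrays it read 11.04, 11.15 and 10.77, against 8.99, 8.34 and 8.48 on the BMM mock arrays. No array of one group overlapped another group, and even LPS-treated MPI-2 cells stayed below mock-treated BMM. The log2 change was 2.11 ± 0.17 in MPI-2 (SE, 4.31-fold, adjusted p = 3.4e-07) and 2.38 ± 0.17 in BMM (5.22-fold, adjusted p = 2.92e-08). The response of MPI-2 minus that of BMM was -0.27 ± 0.23 (95% interval -0.77 to 0.22, limma adjusted p = 0.582).

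Ccl7, the neighbour of Ccl2 and a ligand of Ccr2 and Ccr3, gave the widest separation of the cell types under LPS among the 9. It read 4.11, 4.34 and 4.17 in MPI-2 LPS, against 3.94, 3.37 and 4.24 in MPI-2 mock. The BMM LPS arrays read 11.43, 11.31 and 11.26, against 7.88, 7.42 and 8.11 in BMM mock. The MPI-2 groups overlapped close to background, while the BMM LPS arrays all lay far above the BMM mock arrays. The MPI-2 change of 0.36 ± 0.20 did not pass (95% interval -0.07 to 0.79, limma adjusted p = 0.33). The BMM change was 3.53 ± 0.20 (11.5-fold, limma adjusted p = 3.18e-09). The responses differed by -3.17 ± 0.28, MPI-2 minus BMM (limma adjusted p = 1.74e-06).

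Ccl12, a mouse ligand of Ccr2, and Ccl8, which in the mouse signals through Ccr8, lay above background in BMM LPS alone. Ccl12 read 2.42, 2.43 and 2.36 in MPI-2 LPS, against 2.21, 2.35 and 2.49 in MPI-2 mock. It read 4.42, 5.31 and 5.90 in BMM LPS, against 2.97, 2.66 and 2.36 in BMM mock. Only the BMM LPS arrays passed the background level, and they were widely spaced. Since the BMM mock arrays have only a bound, BMM LPS was at least 3.59-fold higher, and the fitted change was 2.54 ± 0.26 (limma adjusted p = 2.38e-06). The same bound, at least 3.59-fold lower, holds for MPI-2 LPS against BMM LPS.

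Ccl8 read 2.41, 2.31 and 2.30 in MPI-2 LPS, against 2.29, 2.18 and 2.23 in MPI-2 mock. It read 3.88, 3.47 and 3.26 in BMM LPS, against 2.64, 2.23 and 2.46 in BMM mock. Only 2 of 3 BMM LPS arrays were above background, so the gene was barely measured even there. The fitted BMM change was 1.10 ± 0.15 (limma adjusted p = 4.74e-05), and against the background level the rise was at least 1.13-fold. In MPI-2 both Ccl12 (0.05 ± 0.26, limma adjusted p = 0.958) and Ccl8 (0.10 ± 0.15, limma adjusted p = 0.806) lay under background in both groups, so no fold is given. The fitted difference of responses, MPI-2 minus BMM, was -2.49 ± 0.37 for Ccl12 (adjusted p = 0.000263) and -0.99 ± 0.22 for Ccl8 (adjusted p = 0.00519), on values under background in 3 of the 4 groups.

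The RefSeq promoters of this neighbouring pair, 300 bases from 250 before the start to 50 after it on GRCm38.p6, are shown because these 2 genes passed background in the same group. Both strands were searched, and capitals mark matches to TATAAA, to TGANTCA (AP-1) and to the kappaB motif (GGG, a purine, 2 bases of any kind, 2 pyrimidines, CC). Positions are counted from the first transcribed base, which is 0. Ccl12 lies at chr11:82101595-82101894 and Ccl8 at chr11:82114935-82115234, both on the plus strand.
Ccl12: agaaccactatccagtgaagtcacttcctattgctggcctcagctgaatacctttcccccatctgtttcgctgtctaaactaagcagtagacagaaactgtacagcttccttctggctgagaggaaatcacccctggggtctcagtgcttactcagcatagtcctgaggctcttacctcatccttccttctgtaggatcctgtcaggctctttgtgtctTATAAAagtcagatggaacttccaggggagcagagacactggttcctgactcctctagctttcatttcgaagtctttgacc
Ccl8: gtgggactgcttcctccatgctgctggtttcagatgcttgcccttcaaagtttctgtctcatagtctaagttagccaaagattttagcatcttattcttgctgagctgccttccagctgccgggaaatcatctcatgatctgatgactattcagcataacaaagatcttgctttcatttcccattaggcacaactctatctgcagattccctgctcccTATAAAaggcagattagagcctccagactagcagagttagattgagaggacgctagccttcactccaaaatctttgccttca
Each holds TATAAA, at positions -31 to -26 in Ccl12 and -32 to -27 in Ccl8. TATAAA occurs on either strand in 13.6% of 32851 RefSeq promoters of this length. The interferon-stimulated response element (GAAA, 2 bases of any kind, GAAA), found in 3.44% of them, is in neither window, nor are the AP-1 or kappaB letters. Their longest shared run was 11 bases. The table used holds promoters of 5 of the 9 genes, the others being Ccl3, Ccl6 and Ccl9.

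Ccl4, which draws monocytes and T cells, had the largest LPS response of the 9 in MPI-2. It read 9.48, 9.59 and 9.62 in MPI-2 LPS, against 4.79, 4.46 and 4.45 in MPI-2 mock. In BMM LPS it read 10.27, 10.45 and 10.02, against 6.52, 5.57 and 5.94 in BMM mock. All 4 groups were apart, with both LPS groups above both mock groups. The change was 5.0 ± 0.20 in MPI-2 (32.0-fold, adjusted p = 1.29e-10) and 4.24 ± 0.20 in BMM (18.8-fold, adjusted p = 3.15e-10). The responses differed by 0.76 ± 0.28, MPI-2 minus BMM, which did not pass over all genes (95% interval 0.17 to 1.35, limma adjusted p = 0.0929). With 1 array left out at a time the difference ran from 0.51 to 0.98, with a limma adjusted p of 0.0156 to 0.197. It passed only without BMM mock replicate 2, the lowest of its group, at 0.98.

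Ccl5, a ligand of Ccr1 and Ccr3 that draws T cells as well as monocytes, had the largest response of the 9 in BMM. It read 7.77, 7.85 and 7.76 in MPI-2 LPS, against 5.07, 5.06 and 5.16 in MPI-2 mock. The BMM LPS arrays read 11.94, 12.02 and 11.35, against 7.08, 6.71 and 6.92 in BMM mock. Every group was apart from the next, and MPI-2 LPS lay between the BMM groups. The change was 2.70 ± 0.16 in MPI-2 (6.48-fold, adjusted p = 1.68e-08) and 4.87 ± 0.16 in BMM (29.2-fold, adjusted p = 6.77e-12). The responses differed by -2.17 ± 0.23, MPI-2 minus BMM (limma adjusted p = 7.88e-06).

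Ccl3, a ligand of Ccr1, was near the top of the arrays' range in all groups, mock included. It read 12.40, 12.31 and 12.47 in MPI-2 LPS, against 11.47, 11.41 and 11.64 in MPI-2 mock. In BMM LPS it read 12.44, 12.25 and 12.05, against 11.21, 10.75 and 11.13 in BMM mock. LPS arrays lay above mock arrays in each cell type, and the LPS groups overlapped each other. The change was 0.89 ± 0.14 in MPI-2 (1.85-fold, adjusted p = 0.000426) and 1.21 ± 0.14 in BMM (2.32-fold, adjusted p = 9.32e-06). The difference of responses was -0.33 ± 0.20 (95% interval -0.76 to 0.11, limma adjusted p = 0.397). The highest value of the whole table was 12.82.

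Ccl9, a Ccr1 ligand made constitutively by macrophages, rose in both cell types. It read 10.96, 11.12 and 11.10 in MPI-2 LPS, against 9.94, 9.95 and 10.02 in MPI-2 mock. The BMM LPS arrays read 10.96, 11.29 and 11.24, against 10.35, 10.38 and 10.06 in BMM mock. LPS arrays were above mock arrays in each cell type, and the LPS groups overlapped. The change was 1.09 ± 0.13 in MPI-2 (2.13-fold, adjusted p = 2.46e-05) and 0.90 ± 0.13 in BMM (1.86-fold, adjusted p = 6.91e-05). The difference of responses was 0.19 ± 0.18 (95% interval -0.20 to 0.58, limma adjusted p = 0.631).

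Ccl6, which lies next to Ccl9 and also binds Ccr1, was the only one of the 9 that did not rise in either cell type. It read 10.91, 10.94 and 11.02 in MPI-2 LPS, against 11.33, 11.23 and 11.17 in MPI-2 mock. In BMM LPS it read 7.01, 7.65 and 7.96, against 7.38, 7.86 and 7.50 in BMM mock. The MPI-2 LPS arrays were all slightly below the mock arrays, whereas the BMM groups overlapped. The change was -0.29 ± 0.19 in MPI-2 (adjusted p = 0.457) and -0.04 ± 0.19 in BMM (95% interval -0.46 to 0.37, limma adjusted p = 0.903). A fit to the MPI-2 arrays alone, which uses their own smaller spread, gave the same -0.29 with an adjusted p of 0.0414. That fit called 5026 of all genes, against 2941 in the main fit. With 1 array left out at a time the main fit gave a limma adjusted p of 0.228 to 0.706 for Ccl6 in MPI-2.

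**Figure D2:**
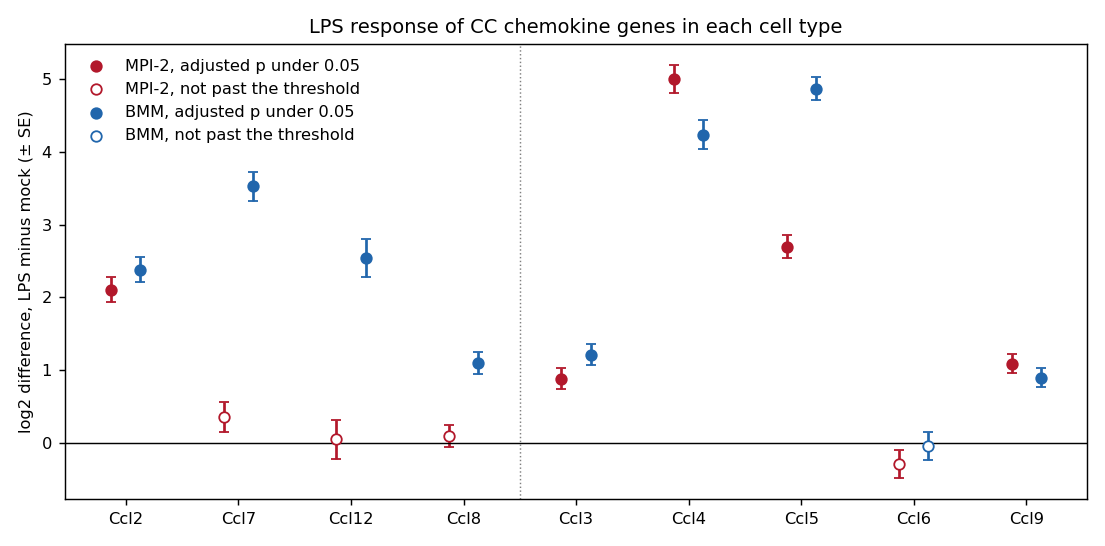
Points are log2 differences, LPS minus mock, for each gene, with MPI-2 left of BMM and whiskers of 1 SE. Filled points have an adjusted p under 0.05, and the dotted line separates the MCP cluster from the MIP cluster. Ccl7 stands at 0.36 in MPI-2 and 3.53 in BMM, Ccl4 at 5.0 and 4.24, and Ccl6 at -0.29 and -0.04.

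The promoters of the neighbours Ccl9 and Ccl6 are shown because Ccl9 rose with LPS in both cell types and Ccl6 in neither. They are from the same RefSeq table with the same marking. Ccl9 lies at chr11:83578587-83578886 and Ccl6 at chr11:83593038-83593337, both on the minus strand.
Ccl9: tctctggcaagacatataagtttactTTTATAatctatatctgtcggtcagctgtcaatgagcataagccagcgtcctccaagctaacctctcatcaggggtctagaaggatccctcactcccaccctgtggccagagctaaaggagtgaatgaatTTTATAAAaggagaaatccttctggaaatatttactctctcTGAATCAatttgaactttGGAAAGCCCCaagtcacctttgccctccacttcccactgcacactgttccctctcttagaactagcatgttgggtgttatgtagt
Ccl6: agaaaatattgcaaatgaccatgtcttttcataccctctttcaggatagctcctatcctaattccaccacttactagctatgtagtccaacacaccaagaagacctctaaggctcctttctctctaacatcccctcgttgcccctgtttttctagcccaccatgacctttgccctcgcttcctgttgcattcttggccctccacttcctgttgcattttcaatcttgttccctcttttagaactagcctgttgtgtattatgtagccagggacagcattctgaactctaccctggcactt
Ccl9 holds TGANTCA at -53 to -47, a kappaB match on the reverse strand at -35 to -26, and TATAAA at -92 to -87 with further matches on the reverse strand, 1 of them overlapping it. The AP-1 letters occur in 7.81% of the 32851 promoters and the kappaB motif in 8.46%. Ccl6 holds none of these, nor does the promoter of Ccl3, which rose with LPS in both cell types. Ccl6 and Ccl9 share a run of 13 bases, gccctccacttcc, which begins at -55 in Ccl6 and at -14 in Ccl9.

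Tested directly, the LPS responses of MPI-2 and BMM differed for 4 of the 9 genes, all of them weaker in MPI-2. These were Ccl7, Ccl12, Ccl5 and Ccl8. Over all genes 13.4% differed, 7.08% with a positive difference, MPI-2 minus BMM, and 6.27% with a negative one. A negative difference over all genes can be a weaker rise or a deeper fall in MPI-2. The median difference was -0.33 for the 9 genes, against -0.02 for all genes. By cluster these were 3 of the 4 MCP genes and 1 of the 5 MIP genes, and a difference between the clusters was not tested. Ccl12 and Ccl8 were under background in every group but BMM LPS. With genes under background left out, 2 responses differed, those of Ccl7 (MCP) and Ccl5 (MIP). For Ccl2, Ccl3, Ccl4, Ccl6 and Ccl9 the intervals reached up to 1.35 on the log2 scale, for Ccl4. The responses of these 5 are not shown to be alike.

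Under LPS, MPI-2 had lower levels than BMM for 6 of the 9 genes and a higher level for Ccl6 alone, against 44.1% of all genes called (21.6% lower, 22.5% higher). The differences were -7.12 ± 0.20 for Ccl7 (139-fold), -4.33 ± 0.17 for Ccl2 (20.1-fold), -3.98 ± 0.16 for Ccl5 (15.8-fold) and -0.68 ± 0.20 for Ccl4 (1.6-fold). Their limma adjusted p ran from 4.55e-13 for Ccl7 to 0.0111 for Ccl4. Ccl12 and Ccl8 completed the 6, at fitted differences of -2.81 ± 0.26 and -1.20 ± 0.15. Their MPI-2 LPS means were under background, so MPI-2 was at least 3.59-fold lower for Ccl12 and at least 1.13-fold lower for Ccl8. Ccl6 was 3.42 ± 0.19 higher in MPI-2 (10.7-fold, limma adjusted p = 8.94e-10). Ccl3 (0.15 ± 0.14, 95% interval -0.16 to 0.46) and Ccl9 (-0.10 ± 0.13, 95% interval -0.38 to 0.17) did not pass, with overlapping arrays. Non-overlapping arrays were above BMM for 1 gene and below for 6, against 24.4% and 31.1% of all genes.

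In mock cells MPI-2 was lower than BMM for 4 of the 9 genes and higher for 2, against 38.6% of all genes called (18.0% lower, 20.6% higher). Ccl2 differed by -4.06 ± 0.17 (16.6-fold, limma adjusted p = 3.16e-11) and Ccl7 by -3.96 ± 0.20 (15.5-fold, limma adjusted p = 3.66e-10). Ccl5 differed by -1.81 ± 0.16 (3.5-fold) and Ccl4 by -1.44 ± 0.20 (2.72-fold). Ccl6 was 3.66 ± 0.19 higher in MPI-2 (12.7-fold, limma adjusted p = 5.46e-10), a gap close to that under LPS. Ccl3 was 0.47 ± 0.14 higher in MPI-2 (1.39-fold, limma adjusted p = 0.0158), but at 0.18 with an adjusted p of 0.506 after cyclic loess scaling. Ccl9 was at -0.30 ± 0.13 and did not pass (limma adjusted p = 0.0846), with all MPI-2 arrays below all BMM arrays. It passed under cyclic loess (-0.63) and quantile scaling (-0.45). Non-overlapping arrays were above for 2 genes and below for 5, against 23.0% and 29.3% of all genes.

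**Figure D3:**
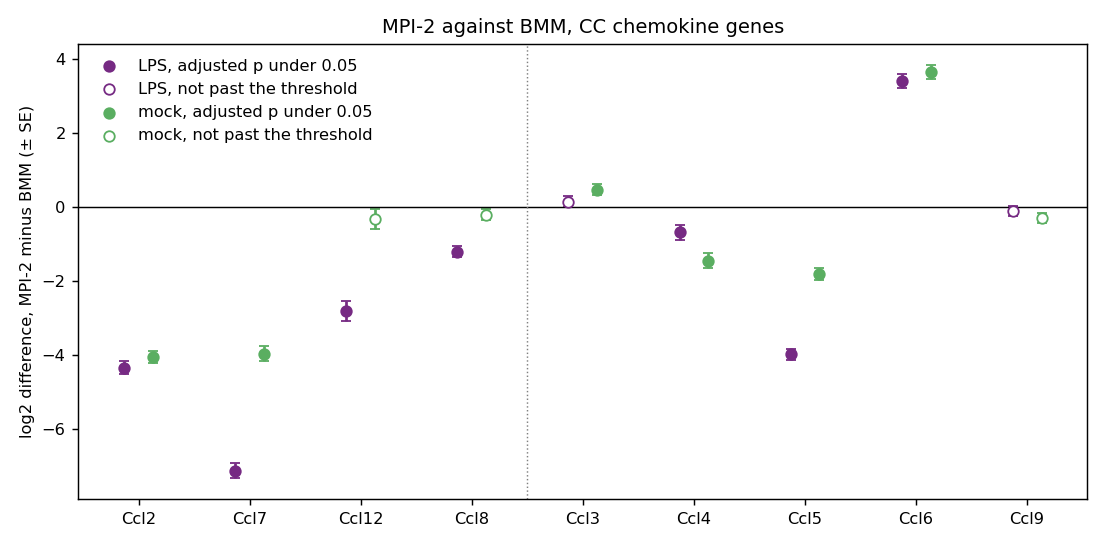
Points are log2 differences, MPI-2 minus BMM, for each gene, with LPS left of mock and whiskers of 1 SE. Filled points have an adjusted p under 0.05. Ccl7 reaches -7.12 under LPS and -3.96 in mock cells, while Ccl6 lies above 0 in both, at 3.42 and 3.66.

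The 4 groups therefore came in different orders for different genes. Ccl2 and Ccl7 ran BMM LPS, BMM mock, MPI-2 LPS, MPI-2 mock from high to low, and the MPI-2 groups of Ccl7 overlapped. Ccl12 and Ccl8 were highest in BMM LPS, and their other 3 groups, all under background, have no order. Ccl4 and Ccl5 ran BMM LPS, MPI-2 LPS, BMM mock, MPI-2 mock, with no neighbours overlapping. Ccl3 ran MPI-2 LPS, BMM LPS, MPI-2 mock, BMM mock, and its LPS groups overlapped. Ccl9 ran BMM LPS, MPI-2 LPS, BMM mock, MPI-2 mock, again with overlapping LPS groups. Ccl6 ran MPI-2 mock, MPI-2 LPS, BMM mock, BMM LPS, and its BMM groups overlapped.

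The SD of 3 arrays ran over the 9 genes from 0.036 to 0.44 in MPI-2 and from 0.086 to 0.75 in BMM. Ccl7 was the least regular in MPI-2, with an SD of 0.44 in MPI-2 mock against 0.35 in BMM mock. The widest of all was Ccl12 in BMM LPS. BMM LPS replicate 3 was the lowest of its group for 6 genes (Ccl2, Ccl7, Ccl8, Ccl3, Ccl4 and Ccl5) and the highest for Ccl12 and Ccl6. BMM mock replicate 2 was the lowest of its group for the same 6, and BMM mock replicate 1 was the highest for 6 genes. With 2 BMM arrays left out (mock replicate 1 and LPS replicate 3), a choice made after the values were seen, the 4 genes that differed in response in the main fit were joined by Ccl2. Ccl2 differed by -0.58 (limma adjusted p = 0.0412). These were its highest BMM mock and lowest BMM LPS arrays, so leaving them out had to enlarge its BMM response, and nothing is concluded from that call. With 1 array left out at a time, its limma adjusted p ran from 0.159 to 0.822.

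Among the receptors and decoys of CC chemokines, 9 genes were measured. LPS raised 1 of the 9 in MPI-2 and 2 in BMM and lowered none. Over all genes it raised 5.17% and lowered 9.58% in MPI-2, and raised 10.3% and lowered 15.4% in BMM. Ccrl2, an atypical receptor that binds chemerin without signalling, rose by 3.25 ± 0.14 in MPI-2 (8.66 ± 0.088 in LPS, 5.42 ± 0.26 in mock) and by 2.62 ± 0.14 in BMM (10.10 ± 0.11 in LPS, 7.47 ± 0.14 in mock). Ccr3, an eosinophil receptor for Ccl5 and Ccl7, had MPI-2 means under background, 3.29 in LPS and 3.27 in mock, and rose by 2.65 ± 0.21 in BMM (7.22 ± 0.49 in LPS, 4.56 ± 0.31 in mock). The responses of Ccr3 differed by -2.63 ± 0.29, MPI-2 minus BMM (limma adjusted p = 1.35e-05).

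Ccr1, the receptor of Ccl3, Ccl5, Ccl6 and Ccl9, separated the cell types in the direction of Ccl6. It read 7.75, 7.88 and 8.37 in MPI-2 LPS, against 3.04, 3.81 and 3.47 in BMM LPS, and 7.70, 7.97 and 7.93 in MPI-2 mock, against 3.29, 3.41 and 2.93 in BMM mock. The BMM arrays scattered about the background level, with 2 of 3 above it in BMM LPS and 1 of 3 in BMM mock. The difference was 4.56 ± 0.20 under LPS (limma adjusted p = 4.86e-11). In mock cells, where the BMM mean was under background, Ccr1 was at least 22.4-fold higher in MPI-2 (fitted difference 4.66 ± 0.20, limma adjusted p = 5.59e-11), and LPS itself did not change Ccr1 past the threshold. Ccr2, the receptor of Ccl2, Ccl7 and Ccl12, had means of 2.43, 2.67, 2.61 and 2.56 in MPI-2 LPS, MPI-2 mock, BMM LPS and BMM mock, all under background. Of the 9 receptor genes, MPI-2 was higher for 1 and lower for 4 under LPS, and higher for 1 and lower for 2 in mock cells. The count lower under LPS was 2 after either other scaling. Over all genes 22.5% were higher and 21.6% lower under LPS, and 20.6% higher and 18.0% lower in mock cells.

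Of 10 CC ligands outside the 9 genes, 3 rose and none fell in MPI-2, and 3 rose and 1 fell in BMM. Over all genes 5.17% rose and 9.58% fell in MPI-2, and 10.3% rose and 15.4% fell in BMM. Ccl22, a Ccr4 ligand, rose by 3.10 ± 0.14 in MPI-2 (8.12 ± 0.089 in LPS, 5.03 ± 0.12 in mock) and 3.09 ± 0.14 in BMM (6.94 ± 0.16 in LPS, 3.85 ± 0.24 in mock). Ccl20, the ligand of Ccr6, rose by 3.43 ± 0.19 in MPI-2 (6.93 ± 0.34 in LPS, 3.50 ± 0.055 in mock), and its response exceeded that of BMM by 3.28 ± 0.28 (limma adjusted p = 9.06e-07). Ccl17, also a Ccr4 ligand, was 4.82 ± 0.15 higher in MPI-2 than in BMM in mock cells (8.20 ± 0.099 in MPI-2, 3.37 ± 0.32 in BMM). Ccl24, an eosinophil attractant that binds Ccr3, rose by 1.35 ± 0.27 in BMM, where it read 5.25, 5.38 and 3.89 in LPS and 3.54, 3.47 and 3.46 in mock. The gene that fell in BMM was Ccl25, by 0.56 on the log2 scale, a call lost under both other scalings. Ccl11 and Ccl1, which lie among the MCP genes, did not pass for LPS, but both were under or close to background throughout. Means in MPI-2 LPS, MPI-2 mock, BMM LPS and BMM mock were 3.29, 3.17, 3.51 and 3.49 for Ccl11. For Ccl1 they were 3.17, 3.14, 3.38 and 3.57, so a response of either gene could be missed. The change of Ccl11 was 0.11 ± 0.12 in MPI-2 and 0.02 ± 0.12 in BMM, and that of Ccl1 was 0.03 ± 0.13 and -0.19 ± 0.13.

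Of 22 genes from TLR4 to NF-kB, 19 were measured, and in MPI-2 6 rose with LPS and 1, Ticam2, fell, while in BMM 12 rose. The shares over all genes were 5.17% higher and 9.58% lower in MPI-2, and 10.3% higher and 15.4% lower in BMM. Tnfaip3, an NF-kB target that restrains the pathway, rose by 2.85 ± 0.12 in MPI-2 (10.76 ± 0.072 in LPS, 7.91 ± 0.048 in mock) and by 2.24 ± 0.12 in BMM (11.32 ± 0.21 in LPS, 9.08 ± 0.078 in mock). Cd14, which passes LPS to TLR4, rose by 2.64 ± 0.13 in MPI-2 (10.40 ± 0.081 in LPS, 7.76 ± 0.13 in mock) and by 0.53 ± 0.13 in BMM (10.72 ± 0.21 in LPS, 10.19 ± 0.093 in mock), and these responses differed by 2.11 ± 0.18 (limma adjusted p = 1.32e-06). In mock cells Cd14 was 2.43 lower on the log2 scale in MPI-2 while Tlr4 was 1.90 ± 0.19 higher (8.97 ± 0.20 in MPI-2, 7.07 ± 0.29 in BMM). Ly96, the partner of TLR4 that binds LPS, rose by 1.80 ± 0.24 in BMM, and its responses differed by -1.47 ± 0.34 (limma adjusted p = 0.00791). Ikbkb, a kinase subunit that frees NF-kB, rose by 1.42 ± 0.18 in BMM, and its responses differed by -1.09 ± 0.25 (limma adjusted p = 0.00755). The difference of responses, MPI-2 minus BMM, was called positive for 3 of the 19 genes and negative for 5, against 7.08% and 6.27% of all genes. A negative difference need not be a weaker response. Ticam2, 1 of the 5, changed by -0.63 ± 0.13 in MPI-2 and by -0.06 ± 0.13 in BMM.

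Of 11 genes of the type I interferon route 10 were measured, and LPS raised 3 in MPI-2 and 6 in BMM and lowered none. The shares raised over all genes were 5.17% in MPI-2 and 10.3% in BMM, and those lowered 9.58% and 15.4%. Ifnb1, which encodes interferon beta, read 2.79, 2.74 and 2.58 in MPI-2 LPS, against 2.56, 2.36 and 2.78 in MPI-2 mock. The BMM LPS arrays read 8.40, 8.80 and 9.69, against 3.07, 2.91 and 2.56 in BMM mock. Only the BMM LPS arrays passed background, so BMM LPS was at least 48.4-fold above BMM mock, with a fitted change of 6.12 ± 0.24 (limma adjusted p = 6.22e-11). Irf7, which amplifies interferon transcription, had MPI-2 means of 3.74 ± 0.23 in LPS and 3.88 ± 0.21 in mock, and rose by 2.51 ± 0.20 in BMM (9.19 ± 0.19 in LPS, 6.67 ± 0.47 in mock). Irf1, a transcription factor of the same family, rose by 2.06 ± 0.14 and Stat2, a subunit of the interferon-activated transcription factor, by 1.32 ± 0.16 in BMM. The 3 that rose in MPI-2 were Jak1 (0.76 ± 0.12), Tyk2 (0.70 ± 0.17) and Ifnar2 (0.40 ± 0.11), parts of the interferon receptor and its kinases. The difference of responses, MPI-2 minus BMM, was called negative for 5 of the 10 and positive for none, against 6.27% and 7.08% of all genes. Among the 5, Irf9 moved in opposite directions, by -0.39 ± 0.13 in MPI-2 and 0.34 ± 0.13 in BMM, neither past the threshold.

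**Figure D4:**
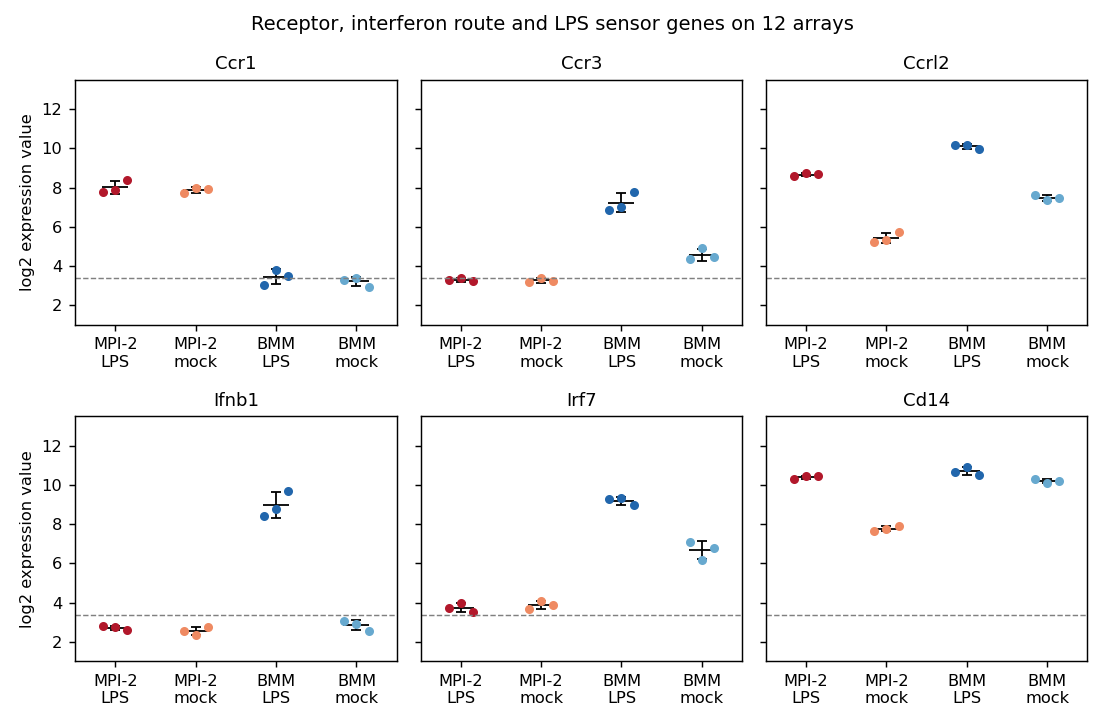
Each panel plots the log2 value of 1 gene on every array, with MPI-2 LPS, MPI-2 mock, BMM LPS and BMM mock from left to right, the mean and SD of 3 arrays, and the background level of 3.36 as a dashed line. Ccr1 is near 8.0 in MPI-2 LPS and 3.44 in BMM LPS, and Ifnb1 is above the line in BMM LPS alone, at 8.96.

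The genes with the most similar pattern to each of the 9 were found by the root mean square difference of log2 values over the 12 arrays, after centring each gene on its own mean, among 17054 candidates. A smaller value is a closer likeness, and the arrays are shared, so these are descriptions. Closest to Ccl2 were Lacc1 (0.469), Ifit1 (0.562) and Fnbp1l (0.612), and closest to Ccl7 were Ifi213 (0.260), Ifi209 (0.430) and Rsad2 (0.445). Closest to Ccl12 were Ifna4 (0.281), Plat (0.304) and Nos2 (0.310), and closest to Ccl8 were Zbtb3 (0.132), Maml2 (0.146) and Mmp25 (0.152). The small values for Ccl8 go with its small range near background. Ccl12, Ifna4, Plat and Nos2 all had means under background in every group but BMM LPS, so their likeness rests on the rise in the BMM LPS arrays.

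For the MIP cluster, Ccl4 was nearest to Acod1 (0.513), Mmp13 (0.550) and Serpinb2 (0.596), and Ccl5 to Saa3 (0.475), Tarm1 (0.528) and Gbp3 (0.588). Ccl3 was nearest to Map3k8 (0.216), Rhbdf2 (0.221) and Nrp2 (0.235), and Ccl9 to Ell2 (0.131), Tbk1 (0.170) and Gbp2b (0.184). Ccl6 was nearest to Bub1b (0.203), Chek1 (0.219) and Rfc4 (0.233). Within the 9, the nearest pair was Ccl3 and Ccl9, at 0.359, while Ccl2 and Ccl7 were 1.03 apart and Ccl6 was 1.76 from its nearest, Ccl3. Ccl2 and its neighbour Ccl7 were each other's nearest member, whereas Ccl9 was nearer to Ccl3 than to the adjoining Ccl6.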

How the data were processed

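Newly made RNA was hybridised to Affymetrix whole-transcript arrays. The table the authors deposited holds log2 values, 1 for each probe set on each array, made with RMA and the package affy per the submitters' processing notes, with versions and the number of RMA runs not given in the sources used here. The log base was taken as 2 from that method and the range of values. RMA includes quantile normalization of probes, but the deposited arrays were not equal, their medians lying between 3.60 and 3.79. Interquartile ranges spanned 2.95 to 3.21 for the MPI-2 arrays and 2.38 to 2.88 for those of BMM. A difference is thus set against the rest of the same array, and arrays give no read depth. The platform annotation pairs 21640 of 34760 probe sets with 1 gene and 1321 with several, and 11799 are unnamed here. The 9 members and all lists were chosen with earlier results of these data known. A gene with several probe sets was represented by the one with the highest mean. Using limma (3.58.1, under R 4.3.3), 1 linear model estimated the 4 group means from the 12 arrays. Its residual degrees of freedom were 8, to which empirical Bayes added 6.99. It gave 5 comparisons with Benjamini-Hochberg adjustment over 19937 genes and a threshold of 0.05, and every adjusted p is limma's. The fit was tested on simulated data. All 9 members are named, list genes in part from those with the smallest adjusted p (up to 4 per list and comparison), and similar genes by the 3 smallest differences in pattern. Ccr2, Ccl11 and Ticam2 were named after their values were seen. Of the genes on the lists, 1 is not reported here. RefSeq (GRCm38.p6) gave names, gene order and promoters. No 2 arrays held identical values. Same-numbered LPS and mock arrays correlated in their deviations at -0.18 to 0.29, so the title numbers were not taken as pairs. The descriptions number the MPI-2 mock arrays 2 to 4 where the titles have 1 to 3, and the MPI-2 arrays that share a description number correlated at -0.029 and 0.15. The alternatives were quantile and cyclic loess scaling, genes above background only, the mean of a gene's probe sets, a replicate block, the compared groups alone, array weights and leaving out each array.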

Additional observations from a re-analysis of the deposited data

Results flagged for a closer look

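For 4 of the 9 genes the test of the difference itself separated the LPS responses of the cell types. The response of MPI-2 minus that of BMM was -3.17 for Ccl7, -2.49 for Ccl12, -2.17 for Ccl5 and -0.99 for Ccl8 on the log2 scale. In each case all 3 BMM LPS arrays lay above all 3 BMM mock arrays, which also held for all the other members but Ccl6 and for 15.6% of all genes. Ccl5 rose in MPI-2 as well, while the MPI-2 changes of Ccl7, Ccl12 and Ccl8 did not pass. Ccl12 and Ccl8 were under background in every group but BMM LPS.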

How the results depend on the processing

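Of 863 recomputed values of single genes, 848 kept their direction and their side of the threshold. Many of the 863 could not change direction, so the tally overstates how far the values were tried. The mean of probe sets, genes above background, the compared groups alone and the replicate block leave a member's difference as it was. Leaving out a BMM array likewise leaves an LPS change in MPI-2 as it was, and the reverse. In these only the adjusted p can move. The number of members called was within 1.5 times the main count under all alternatives run for the 5 comparisons, except that only 2 responses differed when genes under background were left out, which removes Ccl12 and Ccl8. Leaving out 1 array at a time gave 5 to 5 members called for LPS in MPI-2, 8 to 8 for LPS in BMM, 4 to 5 for the difference of responses, 7 to 7 between cell types under LPS and 5 to 7 in mock. Values that changed sign, none of them called, were Ccl12 in MPI-2 (-0.021 to 0.12 over arrays left out, below 0 without MPI-2 mock replicate 1), Ccl6 in BMM (-0.25 to 0.22, above 0 without BMM LPS replicate 1 or BMM mock replicate 2), the Ccl6 difference of responses with 2 BMM arrays left out, mock replicate 1 and LPS replicate 3 (0.066), and Ccl3 between cell types under LPS with cyclic loess (-0.099). Ccl3 in mock, called higher in MPI-2, lost its call without BMM mock replicate 2 (0.34, adjusted p = 0.0835) or MPI-2 mock replicate 3 (0.41, adjusted p = 0.068). Ccl9 was called lower in MPI-2 under LPS with cyclic loess (-0.43) and in mock without BMM mock replicate 3 (-0.40). Cyclic loess moved the median of all genes by 0.11 for MPI-2 against BMM under LPS. It moved the share of higher calls by at most 9.78 points, and quantile scaling by at most 7.65 points. The cause of these changes was not tested. With the replicate block by title number, 5 members were called for LPS in MPI-2, 8 for LPS in BMM and 4 for the difference, and no call changed. Between cell types the block could not be fitted, since each lies in 1 cell type, and the fit of the compared groups alone gives no difference of responses. Low signal limits Ccl12 and Ccl8, and 3 arrays a group limit the precision of every value.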

Other observations

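Genes flanking the clusters, chosen by position after the values were seen, were also measured. Wfdc17, which follows Ccl4, averaged 10.8 ± 0.093 in MPI-2 LPS and 8.44 ± 0.076 in MPI-2 mock, a rise of 2.37 ± 0.24 (limma adjusted p = 3.93e-06). It averaged 10.3 ± 0.27 in BMM LPS and 5.77 ± 0.65 in BMM mock, a rise of 4.49 ± 0.24 (limma adjusted p = 1.31e-09). Heatr9, at the Ccl5 end of the MIP cluster, was under background in MPI-2, at 2.80 ± 0.21 in LPS and 2.68 ± 0.026 in mock. It averaged 4.48 ± 0.089 in BMM LPS and, under background, 2.86 ± 0.063 in BMM mock, a rise of at least 2.16-fold (fitted change 1.62 ± 0.12, limma adjusted p = 8.85e-08). 1700071K01Rik, before Ccl2, did not pass in either cell type, at -0.20 ± 0.22 in MPI-2 and 0.18 ± 0.22 in BMM.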
